A study of Mus musculus with 2 samples.

Results

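The 9 genes described here act in pulmonary surfactant phospholipid synthesis or in the lamellar body, and they were chosen by name and followed in mouse lung at embryonic day 15.5: Chka, Pcyt1a, Pcyt1b, Chpt1, Cept1, Lpcat1, Abca3, Lamp3 and Slc34a2. All 9 were found among the 43346 features that carry an Ensembl gene identifier in both gene tables. The study measured total RNA of whole lung by sequencing in a single group of 2 libraries. Replicate 1 came from the pooled lungs of 78 embryos and replicate 2 from those of 62 embryos, both of the B6NCrl strain at embryonic day 15.5, with both sexes pooled and no treatment or allele named. Each library is thus an average over many embryos, and its pool, dissection and library preparation cannot be told apart. With 1 group there is no condition to compare, so values are given for each library, with mean ± SD over n = 2 and no test.

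Surfactant is the film of lipid and protein that keeps alveoli from collapsing, and its main lipid is dipalmitoyl phosphatidylcholine. Alveolar type II cells make it by the Kennedy pathway, in which choline is phosphorylated, activated to CDP-choline and joined to diacylglycerol, after which acyl chains are exchanged to give the saturated form. The lipid is pumped into lamellar bodies, storage organelles related to lysosomes, and is released by exocytosis. At this embryonic stage the lung is still a branching epithelial tree in mesenchyme, and lamellar bodies become abundant only later in gestation.

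The libraries held 39530297 and 35733530 reads in Ensembl genes (estimated reads, which need not be whole), and spike-in sequences took another 2.14% and 2.37% of all reads. All 6 epithelial markers examined (Sftpc, Cldn18, Epcam, Cdh1, Nkx2-1 and Sftpb) were detected, and mesenchymal, endothelial and blood markers were detected too. The libraries differed in markers of other organs. The summed level of 7 liver markers was 33.2 TPM in replicate 1 and 155 TPM in replicate 2, that of 6 thymus markers 58.2 and 13.9 TPM, and that of 6 heart and skeletal muscle markers 277 and 334 TPM. Within the last list Nppa and Myh6 were over 2-fold lower in replicate 2, and Myl2, Myl3, Myh7 and Acta1 were 2.81-fold to 4.87-fold higher. TPM is the share of a gene among all transcripts of a library after division by transcript length.

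All 9 genes reached 1 TPM in both libraries, the minimum used here for detection, where 60.7% of 21474 protein-coding genes did. Their median was 27.2 TPM in replicate 1 and 26.9 TPM in replicate 2, beside 20.3 and 19.2 TPM for detected protein-coding genes. Lpcat1 stood highest and Pcyt1b lowest, and the 7 other genes had a mean above that of 35.2% (Lamp3) to 77.8% (Cept1) of detected protein-coding genes. By mean level the order was Lpcat1, Cept1, Chka, Chpt1, Pcyt1a, Abca3, Slc34a2, Lamp3 and Pcyt1b, and it was the same in both libraries. These are whole-gene values, with noncoding transcripts counted. Of the 8 neighbouring pairs, 6 differed, meaning that their deposited TPM intervals overlapped in neither library. The intervals of Cept1 and Chka overlapped in both libraries. Those of Slc34a2 and Lamp3 overlapped in replicate 2 only, and in replicate 1 Slc34a2 lay above Lamp3. The enzymes that make and remodel phosphatidylcholine, Pcyt1b aside, thus all stood above the 3 proteins of the lamellar body and the apical membrane. The tables state no level for these intervals, which centre on a posterior mean rather than on the TPM value itself.

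**Figure D1:**
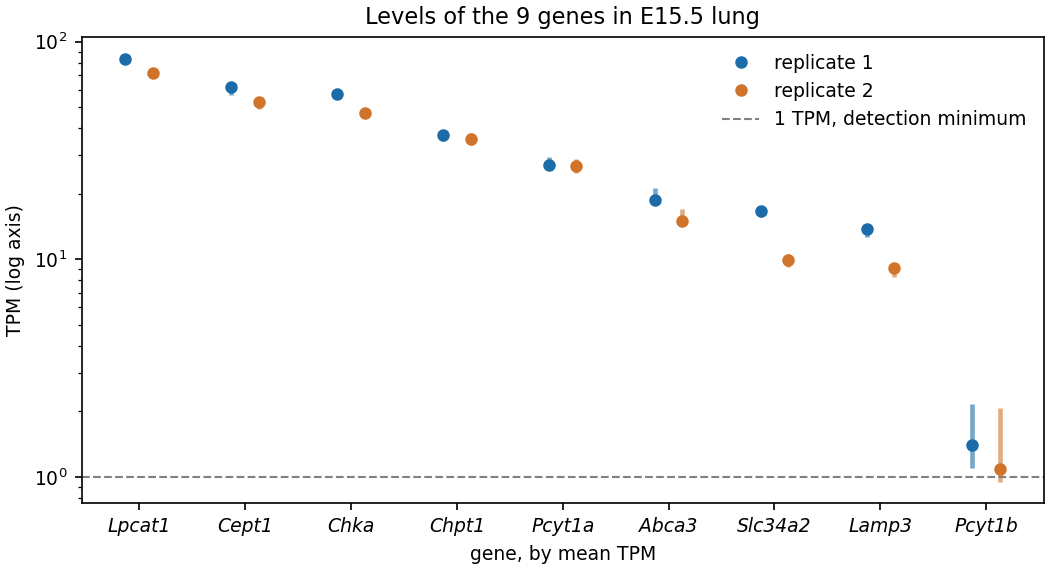
TPM on a log axis for the 9 genes in replicate 1 (blue) and replicate 2 (orange), with the deposited interval of each value as a vertical line. Lpcat1 lay at 82.8 and 71.8 TPM and Pcyt1b at 1.40 and 1.09 TPM, close to the dashed line at 1 TPM.

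Chka encodes choline kinase alpha, which carries out the first step, the phosphorylation of choline. Its level was 57.6 TPM in replicate 1 and 46.8 TPM in replicate 2 (52.2 ± 7.66, SD, n = 2), from 3593 and 2720 reads. The gene spans chr19:3851773-3894369 on the plus strand (mm10). Chkb, the beta kinase that shares this step, stood at 49.2 and 43.6 TPM. By whole-gene TPM, noncoding transcripts included, the ratio of Chka to Chkb was 1.17 and 1.07. In replicate 1 Chka lay above Chkb beyond the intervals (at least 54.9 TPM against at most 52.6 TPM). In replicate 2 their intervals overlapped.

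A large part of the Chka signal was assigned to transcripts that do not encode the kinase. Transcripts annotated with a retained intron held 40.6% of its TPM in replicate 1 and 38.9% in replicate 2. Among 9530 detected protein-coding genes with 2 or more transcripts, 13% had at least 20% of their TPM in such transcripts in both libraries. Chka-214, which runs from the second exon 2911 nt into the following intron, had 13.7 and 10.2 TPM from 1270 and 876 reads. Chka-205, whose last exon of 911 nt lies within an intron of the main form, had 5.86 and 4.99 TPM. Coding transcripts of Chka held 54.5% and 56.5%. Strand use in the counting is not given in the sources used here, and 165 of the 3605 nt of Chka-214 lie in exons of the antisense gene AC133523.2, so reads of those bases cannot be told apart.

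In coding sequence, Chka-201 and Chka-202, the 2 major coding forms of Chka, differ by 1 cassette exon of 54 nt, a multiple of 3. This exon lies at chr19:3875735-3875788 on the plus strand. It is shown because it is all that separates the coding sequences of these forms:
Chka cassette exon: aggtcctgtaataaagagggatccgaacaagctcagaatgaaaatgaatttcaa
Chka-201, which holds this exon, had 24.2 and 18.1 TPM, and Chka-202, which skips it, had 7.11 and 7.48 TPM. Taking the 6 transcripts that hold exactly this exon and the 2 that join its neighbouring exons directly, the exon was present in 78.7% of TPM in replicate 1 and in 71.8% in replicate 2 (75.2% ± 4.87). Chka-203, Chka-206 and Chka-211 also cross the site, with other exons there, and are left out of this share. The highest of them, Chka-211, had 1.93 and 2.04 TPM. The intervals of Chka-201 did not overlap between the libraries, while those of Chka-202 did.

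Pcyt1a and Pcyt1b encode the alpha and beta forms of the CTP:phosphocholine cytidylyl transferase, the rate-limiting enzyme of the pathway. Pcyt1a (chr16:32430921-32475070, plus strand) had 27.2 TPM in replicate 1 and 26.9 TPM in replicate 2 (27.0 ± 0.219), from 2995 and 2635 reads. It was the member with the smallest relative spread. Pcyt1a-201 alone held 82.0% and 79.7% of its TPM, Pcyt1a-204 held 4.15% and 10.3%, and transcripts with the same coding exons together held 90.1% and 90.0%. Pcyt1b (chrX:93654863-93749951, plus strand) had 1.40 and 1.09 TPM (1.25 ± 0.219), from only 149 and 129 reads. The alpha form was thus 19.4-fold and 24.6-fold above the beta form. By whole-gene TPM, Chka was in turn 2.12-fold and 1.74-fold above Pcyt1a. In transcripts annotated as coding the gap was smaller. There Chka had 31.36 TPM in replicate 1 and 26.42 TPM in replicate 2, and Pcyt1a had 24.58 and 24.35 TPM.

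The few Pcyt1b reads were assigned mostly to 1 of the gene's 2 coding transcripts, whose start sites lie far apart. Pcyt1b-201, from the downstream start, had 124 and 129 reads. Pcyt1b-202, from the upstream start, had 23.7 reads in replicate 1 and 0 in replicate 2, where a count of 0 allows up to 0.0256 TPM by 3 counts and the deposited interval reaches 0.477 TPM. A short noncoding transcript within the gene, Pcyt1b-203, had 0.230 TPM from 1.54 reads in replicate 1, or 16.6% of the gene's TPM, and 0 reads in replicate 2, where its deposited interval reaches 0.959 TPM. Of the TPM of the 2 coding forms, the downstream start held 83.8% and 100%. The posterior mean values of the same tables put it at 73.9% and 83.3%, so the share is poorly fixed at this depth. The 250 bases before each start (RefSeq, GRCm38.p6, plus strand) are shown because they differ in base composition, with capitals marking the match to CCAAT:
Pcyt1b upstream start, chrX:93654613-93654862: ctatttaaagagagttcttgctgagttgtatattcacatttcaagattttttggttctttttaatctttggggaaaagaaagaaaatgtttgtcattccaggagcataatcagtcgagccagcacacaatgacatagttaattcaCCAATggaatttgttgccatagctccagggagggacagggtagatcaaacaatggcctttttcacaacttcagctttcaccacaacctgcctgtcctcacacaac
Pcyt1b downstream start, chrX:93674862-93675111: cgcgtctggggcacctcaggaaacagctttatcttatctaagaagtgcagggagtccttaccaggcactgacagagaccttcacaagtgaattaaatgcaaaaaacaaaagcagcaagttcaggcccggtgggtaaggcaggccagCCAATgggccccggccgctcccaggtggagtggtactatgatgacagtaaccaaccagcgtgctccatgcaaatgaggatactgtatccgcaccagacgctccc
The upstream window holds 1 CpG and 39.6% GC, and the downstream window holds 8 CpG and 53.6% GC. Over all 32851 windows of this length in the table the median was 6 CpG and 52.4% GC.

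Chpt1 and Cept1 encode the enzymes that join the head group to diacylglycerol: cholinephosphotransferase 1, and choline/ethanolamine phosphotransferase 1, which accepts both CDP-choline and CDP-ethanolamine. Cept1 (chr3:106502260-106547802, minus strand) had 61.6 TPM in replicate 1 and 52.5 TPM in replicate 2 (57.1 ± 6.42). Chpt1 (chr10:88452745-88504073, minus strand) had 37.1 and 35.6 TPM (36.4 ± 1.01). Cept1 was above Chpt1 in both libraries, by 1.66-fold and 1.47-fold, with intervals that did not overlap. Of the exon bases of Cept1, 24.7% lie in exons of Dennd2d on the other strand (10.9 and 9.44 TPM), but of its main transcript Cept1-203 only 2.26% do.

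The full-length coding transcripts of Cept1 carry 1 of 2 alternative exons of 85 nt each, between the same neighbouring exons. The distal exon lies at chr3:106512803-106512887 and the proximal exon at chr3:106520009-106520093, both on the minus strand. Transcripts with the distal exon summed to 41.8 and 37.9 TPM, and those with the proximal exon to 10.9 and 9.49 TPM. Of the TPM with either exon, the distal exon held 79.4% in replicate 1 and 80.0% in replicate 2 (79.7% ± 0.421). The estimates were thus close in both pools. Cept1-201 holds most of the TPM with the proximal exon. Its deposited interval ran from 4.01 to 11.3 TPM in replicate 1 and from 3.72 to 10.8 TPM in replicate 2. The share is therefore less well fixed in each library than this SD shows. The exons are shown with the exon of the same length in Chpt1 (chr10:88482231-88482315, minus strand). The choice between the Cept1 exons is the main difference in coding sequence among full-length Cept1 transcripts. Capitals mark the bases at which the Cept1 exons differ from each other:
Cept1 distal exon: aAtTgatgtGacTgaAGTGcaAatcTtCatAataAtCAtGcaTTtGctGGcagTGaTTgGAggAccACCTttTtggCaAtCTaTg
Cept1 proximal exon: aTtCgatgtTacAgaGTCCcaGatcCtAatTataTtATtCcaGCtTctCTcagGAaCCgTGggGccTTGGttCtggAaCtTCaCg
Chpt1 exon of the same length: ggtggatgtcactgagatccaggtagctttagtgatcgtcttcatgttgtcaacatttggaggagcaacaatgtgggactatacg
The Cept1 exons share 47 of 85 bases (55.3%) without gaps. The distal exon shares 48 of 85 bases with the Chpt1 exon (56.5%), and the proximal exon shares 41 (48.2%). The main transcripts with each exon, Cept1-203 and Cept1-201, have coding sequences of equal length, 1248 nt, and stood at 39.5 and 33.7 TPM and at 7.88 and 7.95 TPM.

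In Chpt1 the transcript with the highest TPM was 1 that the annotation labels as a target of nonsense-mediated decay. Chpt1-207 had 19.1 TPM in replicate 1 and 21.1 TPM in replicate 2, or 51.6% and 59.2% of the gene. Among the 9530 genes with several transcripts, 1.1% had at least 50% of their TPM in such transcripts in both libraries. Its coding exons are those of Chpt1-201, which had 11.9 and 10.2 TPM. The forms differ after the stop codon, where Chpt1-207 removes an intron of 2348 nt, so that its last exon junction lies 72 nt beyond the stop codon. In reads the order was the other way: Chpt1-201, 3898 nt long, had 1191 and 956 reads, and Chpt1-207, 1447 nt long, had 682 and 700. The order between these transcripts therefore rests on the division by length. Together they held 83.6% and 88.0% of the TPM of Chpt1. Exons of Sycp3 on the other strand cover 10.1% of Chpt1-207 and 10.8% of Chpt1-201, and Sycp3 itself was listed at 0.150 and 0.160 TPM.

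**Figure D2:**
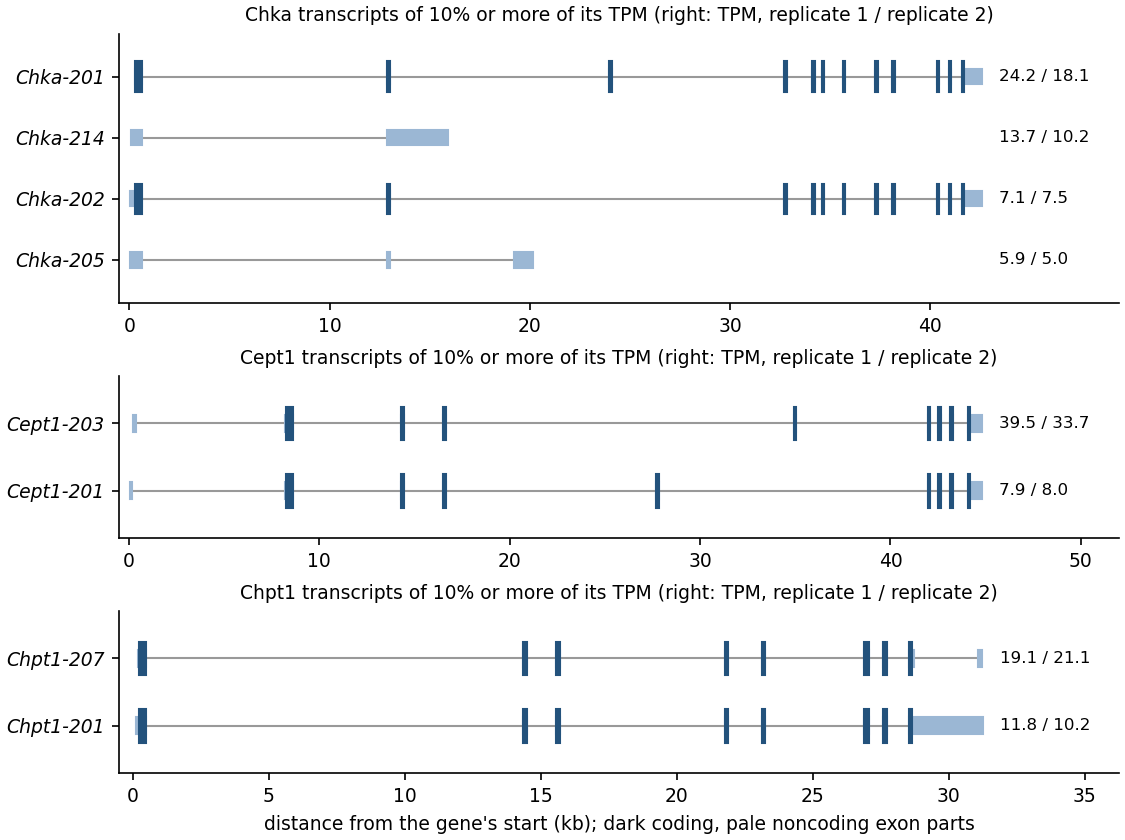
Exon structure of the transcripts that held 10% or more of the TPM of Chka, Cept1 or Chpt1, by distance from the gene's start in kb, with coding parts dark and noncoding parts pale and the TPM in replicate 1 and replicate 2 at the right. In coding sequence, the cassette exon separates Chka-201 from Chka-202, and the alternative exons separate Cept1-203 from Cept1-201. The intron after the coding part separates Chpt1-207 from Chpt1-201. Within each of these pairs the noncoding start differs as well.

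Lpcat1 encodes lysophosphatidylcholine acyltransferase 1, which puts a saturated chain back on lysophosphatidylcholine. It lies at chr13:73467197-73516422 on the plus strand, with no other gene across it. Its deposited interval ran from 79.0 to 84.1 TPM in replicate 1 and from 68.4 to 73.1 TPM in replicate 2, from 7203 and 5866 reads, the most of any member. Lpcat1 stood above its relatives in both libraries, by 13.0-fold and 11.5-fold over Lpcat2, by 5.95-fold and 4.89-fold over Lpcat4, and by 1.59-fold and 1.52-fold over Lpcat3. Lpcat3, which favours polyunsaturated chains, was thus the nearest of the 3 in level. Lpcat1-201 held 86.2% and 83.7% of the gene's TPM. The second exon, of 143 nt, was skipped in Lpcat1-202, labelled as a target of nonsense-mediated decay. Of the TPM of Lpcat1-201, Lpcat1-204 and Lpcat1-202, the forms with the exon held 95.5% and 91.5%. Lpcat1-206, which also crosses the site, had 0.18 and 0.35 TPM and is left out. The deposited interval of Lpcat1-202 ran from 1.43 to 7.24 TPM in replicate 1 and from 1.85 to 7.68 TPM in replicate 2, so the difference in share is poorly fixed.

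**Figure D3:**
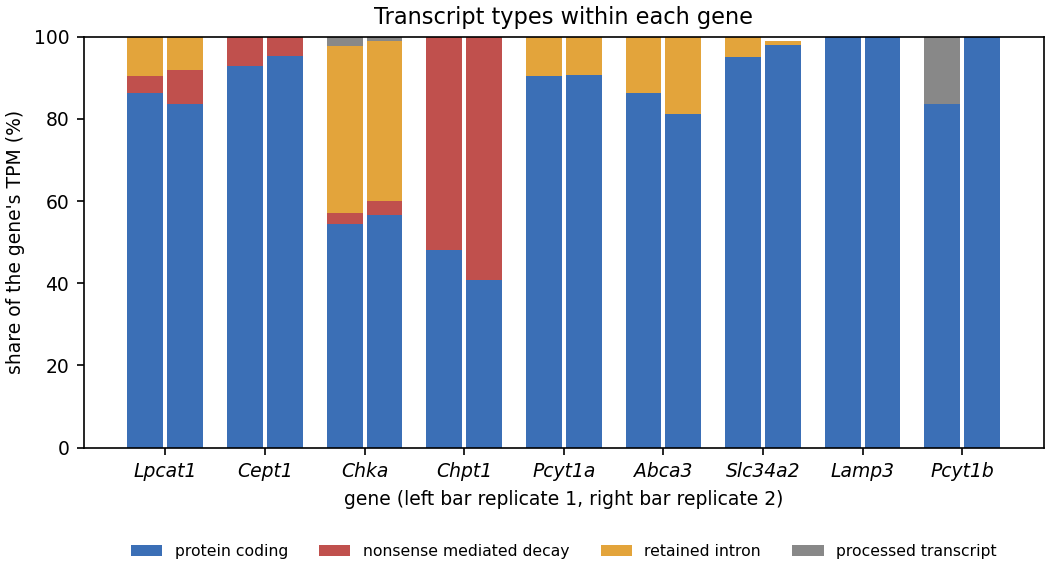
Share of each gene's TPM held by transcripts of each annotated type, in percent, with replicate 1 as the left bar and replicate 2 as the right bar of each pair. Chka had 40.6% and 38.9% in transcripts with a retained intron, Chpt1 had over 50% in transcripts labelled nonsense-mediated decay, and Lamp3 has a single transcript.

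Abca3 encodes the transporter that loads phosphatidylcholine and phosphatidylglycerol into the lamellar body. The gene (chr17:24351950-24410201, plus strand) had 18.8 TPM in replicate 1 and 15.0 TPM in replicate 2 (16.9 ± 2.68), from 2883 and 2102 reads. It was higher than each of the other 15 members of its family, of which Abca1 came next with 7.90 and 7.65 TPM. The ratio of Abca3 to Abca1, the cholesterol exporter, was 2.38 and 1.96. Abca3-201 held 73.5% and 74.1% of the TPM, and the retained-intron transcript Abca3-205 held 8.65% and 10.1%. D330041H03Rik on the other strand, with 9.83 and 7.59 TPM, covers 9.75% of the exon bases of Abca3, and its part in the value was not tested. Against the surfactant proteins, which are packed into the same organelle, Sftpc was 366-fold and 390-fold and Sftpb 4.18-fold and 4.06-fold above Abca3.

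Lamp3 encodes a glycoprotein of the limiting membrane of the lamellar body, known also from mature dendritic cells. It had 13.8 TPM in replicate 1 and 9.08 TPM in replicate 2 (11.4 ± 3.30), from 1180 and 725 reads, in its single annotated transcript at chr16:19653378-19706375 on the minus strand. The general lysosomal glycoproteins of the same family were far higher, Lamp1 by 19.4-fold and 28.9-fold and Lamp2 by 8.39-fold and 11.7-fold. Slc34a2, the sodium-phosphate cotransporter of the apical membrane of type II cells, takes up phosphate released from surfactant. Slc34a2 (chr5:53038081-53071664, plus strand) had 16.7 TPM in replicate 1 and 9.89 TPM in replicate 2 (13.3 ± 4.79), from 1745 and 981 reads. The ubiquitous phosphate carriers Slc20a1 and Slc20a2 stood above it in both libraries, by 1.38-fold and 2.07-fold and by 1.56-fold and 2.62-fold. Slc34a2-201 held 95.1% and 98.1% of the gene's TPM.

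Lamp3 and Slc34a2 were the members that differed most between the pools, both lower in replicate 2. None of the 4 motifs searched was found in the single window of either gene. Cept1, Pcyt1a and Pcyt1b had more windows each, so more bases were searched for them. The share of all windows that hold none of the 4 was not counted, so the absence cannot be called unusual. No link to the replicate difference was tested. The 250 bases before the RefSeq start sites of Lamp3 and Slc34a2 (GRCm38.p6, each on its gene's strand) are shown because these genes differed most:
Lamp3, chr16:19706366-19706615, minus strand: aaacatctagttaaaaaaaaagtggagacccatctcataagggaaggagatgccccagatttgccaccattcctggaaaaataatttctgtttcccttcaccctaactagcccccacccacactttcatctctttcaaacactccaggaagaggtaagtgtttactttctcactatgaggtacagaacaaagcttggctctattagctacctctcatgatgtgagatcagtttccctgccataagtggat
Slc34a2, chr5:53049103-53049352, plus strand: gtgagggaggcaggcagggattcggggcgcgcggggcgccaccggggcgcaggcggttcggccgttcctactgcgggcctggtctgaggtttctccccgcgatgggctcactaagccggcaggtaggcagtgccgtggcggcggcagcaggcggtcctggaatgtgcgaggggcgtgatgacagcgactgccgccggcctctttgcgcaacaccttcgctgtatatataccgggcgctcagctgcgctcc
Their composition is opposite: the Lamp3 window has 0 CpG and 42.4% GC, and the Slc34a2 window has 28 CpG and 69.6% GC. The motifs, sought on both strands, were GGGCGG (a GC box, in 32.7% of all 32851 windows), CCAAT (33.8%), TATAAA (12.4%) and TCAAGTG (2.68%), an element of the NK-2 homeodomain family to which Nkx2-1 belongs. They do not overlap one another in these letters. In the 14 windows of the 9 genes, GGGCGG was found for Abca3, Cept1, Chka, Chpt1, Lpcat1 and Pcyt1a, and CCAAT for Chka, Chpt1 and Pcyt1b. TATAAA and TCAAGTG were found for none of them. A match or its absence describes these letters only.

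Of the 9 genes, 7 were lower in replicate 2 after the libraries had been scaled to each other. This scaling (TMM) raised the TPM of replicate 2 by 0.07 on the log2 scale. Chpt1 and Pcyt1a had log2 ratios of 0.01 and 0.06. Of the 8 members with a mean of at least 5 TPM, 6 were lower in replicate 2, beside 44.7% of all 11261 genes with that mean. Slc34a2 was 1.60-fold higher in replicate 1 (log2 ratio -0.68), Lamp3 1.44-fold (-0.53), Abca3 1.19-fold (-0.25), Chka 1.17-fold (-0.23) and Lpcat1 1.10-fold (-0.13). For these 5, of the 8 members with a mean of at least 5 TPM, the scaled intervals did not overlap. Over all 11261 genes with that mean, 4.3% had such intervals with replicate 1 higher and 9.24% with replicate 2 higher. With a minimum of 1.2-fold, 2 members remained, Slc34a2 and Lamp3, beside 1.63% of all genes, and with 1.5-fold only Slc34a2, beside 0.453%. None of the 8 reached 2-fold, a rule that 0.355% of those genes met, 0.24% with replicate 1 higher and 0.115% with replicate 2 higher. For Slc34a2, 0.648% of these genes had a log2 ratio as low or lower, for Lamp3 1.07%, for Abca3 4.64% and for Lpcat1 13.2%.

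Cept1 was lower in replicate 2 by TPM (log2 ratio -0.16), with overlapping scaled intervals. In scaled reads its log2 ratio was -0.04, and its estimated effective length was 1707 nt in replicate 1 and 1856 nt in replicate 2. The longer transcript Cept1-202 had 1.95 TPM in replicate 1 and 4.26 TPM in replicate 2. Cept1-202 reaches chr3:106502260, beyond the end of Cept1-203 at chr3:106502983. Of the exon bases of the whole gene, 771 nt lie in exons of Dennd2d on the other strand, against 48 nt of those of Cept1-203. The overlap of Cept1-202 by itself was not counted. With strand use not given, reads of any shared bases cannot be told apart. Pcyt1b had a log2 ratio of -0.29 by TPM and -0.03 by scaled reads, and the 95% counting interval of the former reached from -0.64 to 0.06. Chpt1 and Pcyt1a change sign without the scaling, to -0.06 and -0.02, so neither is given a direction.

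The epithelial markers did not move together. Log2 ratios were 0.10 for Epcam, 0.01 for Nkx2-1, -0.02 for Cldn18, -0.08 for Cdh1, -0.16 for Sftpc and -0.30 for Sftpb, and the summed level of the 6 was 7650 TPM in replicate 1 and 6589 TPM in replicate 2. All 6 thymus markers were lower in replicate 2, by log2 ratios from -1.52 to -2.63. Of the 4 blood markers, the leukocyte gene Ptprc had 6.20 and 3.13 TPM and the myeloid gene Tyrobp 47.1 and 42.6 TPM, while the globin genes Hba-a1 and Hbb-bt had log2 ratios of 0.20 and 0.23. None of the defining thymus markers was at 0 in either library. The part of these differences in the ratios of Lamp3 and Slc34a2 was not tested. In whole tissue, fewer cells of a type and less RNA per cell cannot be told apart.

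**Figure D4:**
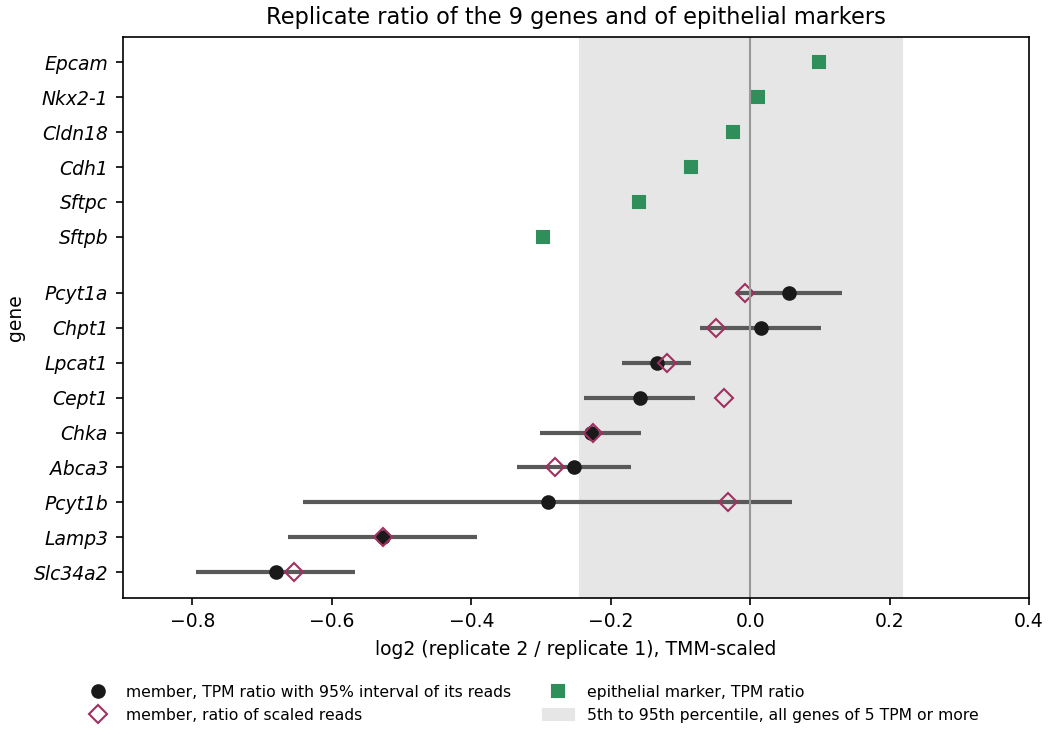
Log2 ratio of replicate 2 over replicate 1 after TMM scaling for the 9 genes by TPM (black circles, with a 95% interval from their reads) and by reads (open diamonds), and for 6 epithelial markers by TPM (green squares). Slc34a2 at -0.68 and Lamp3 at -0.53 lay well below the grey band, which holds the 5th to 95th percentile of all genes with a mean of at least 5 TPM (-0.24 to 0.22), and Epcam lay above 0.

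The 9 genes sit among 93 other genes of surfactant lipid metabolism and of the organelle, grouped in 9 lists. Of these 93, 78 were detected (83.9%, against 60.7% of protein-coding genes), with medians of 15.0 and 13.7 TPM over all 93. Their median log2 ratio between the pools was -0.03 over the 62 with a mean of at least 5 TPM, and 8 of the 62 had separate intervals with replicate 1 higher, beside the 4.3% of all genes. Another 3 had separate intervals with replicate 2 higher, beside 9.24% of all genes.

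For choline entry and the parallel ethanolamine branch, 9 of 12 genes were detected. The highest was Pcyt2, the cytidylyl transferase of the ethanolamine branch, with 96.4 ± 14.4 TPM, which stood 3.92-fold and 3.21-fold above Pcyt1a. It was followed by the choline transporter-like gene Slc44a2 (92.8 ± 6.22 TPM) and by Chkb (46.4 ± 3.96 TPM). Slc44a4, Slc5a7 and Slc44a5 were under the minimum. For the supply of phosphatidic acid and diacylglycerol, 11 of 12 genes were detected, led by the glycerol-3-phosphate acyltransferase Gpat4 (63.2 ± 3.09 TPM) and the acyltransferases Agpat3 (53.6 ± 2.55 TPM) and Agpat1 (43.7 ± 0.332 TPM), and Gpat2 was not. Among genes of acyl remodelling, 9 of 10 were detected, with Prdx6, a peroxiredoxin that also has phospholipase activity toward surfactant lipid, at 440 ± 2.96 TPM. Lpcat3 (49.8 ± 3.49 TPM) and Mboat7 (46.2 ± 1.24 TPM) followed, and Lpcat2b was listed at 0 in both libraries. All 7 genes of the phosphatidylglycerol and phosphatidylinositol branch were detected, led by Cdipt (78.8 ± 4.96 TPM), Ptpmt1 (46.7 ± 2.21 TPM) and Pgs1 (33.7 ± 2.91 TPM).

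All 18 genes of the lamellar body and related organelles were detected. The tetraspanin Cd63 had 575 ± 19.7 TPM, the protease Ctsh, which processes surfactant proteins, 382 ± 57.8 TPM, and Lamp1 265 ± 3.17 TPM, and their median was 24.0 TPM. All 13 genes of surfactant exocytosis and turnover were detected as well, led by the annexin Anxa2 (688 ± 52.7 TPM) and the vesicle proteins Vamp8 (157 ± 7.63 TPM) and Vamp2 (53.8 ± 3.29 TPM). Of the Abca family 9 of 16 were detected, with Abca8a (4.82 ± 1.33 TPM) after Abca3 and Abca1, and Abca8b, Abca12, Abca13, Abca14, Abca15, Abca16 and Abca17 were under the minimum. Of the phosphate carriers 4 of 6 were detected, and the kidney forms Slc34a1 and Slc34a3 were not. Of the LAMP family 4 of 5 were detected, and Lamp5 was not.

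**Figure D5:**
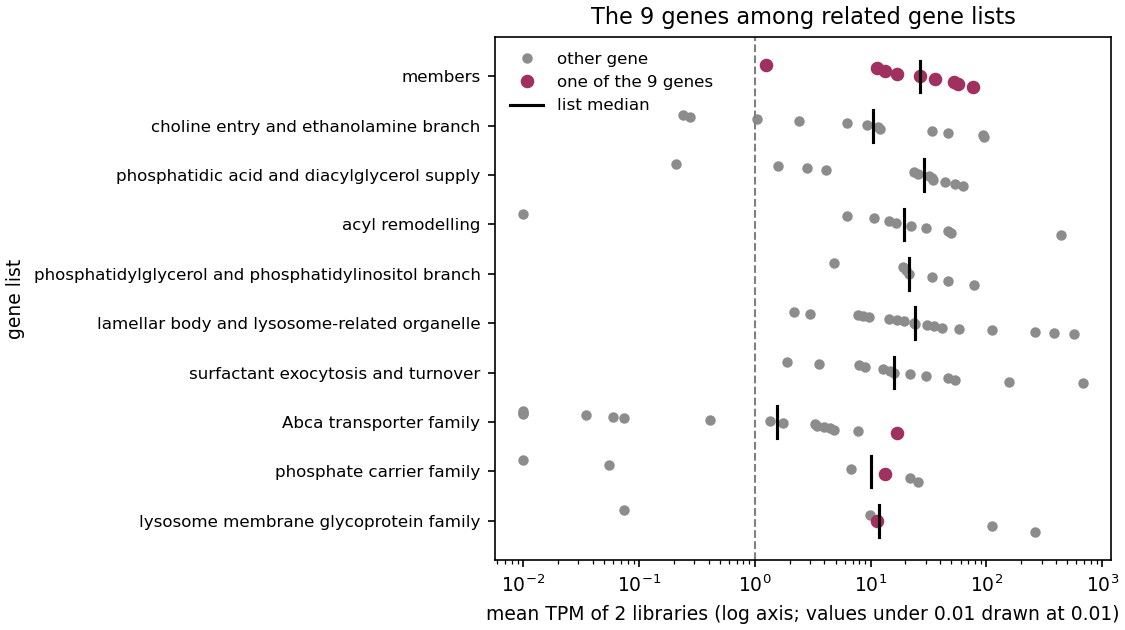
Mean TPM over the 2 libraries on a log axis for the 9 genes (purple) and for the other genes of the 9 lists (grey), with the median of each list as a black bar and the detection minimum of 1 TPM as a dashed line. Abca3 is the highest of its family at 16.9 TPM, while Lamp3 at 11.4 TPM lies far below Lamp1 at 265 TPM.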

How the data were processed

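Each library has a deposited gene table and a deposited transcript table. Per the deposited text describing the files, the authors used genome build mm10 and annotation M4. Which program quantified the reads, in which version and with which use of strand, is not given in the sources used here. Per the labels' protocols, 10 ng of RNA longer than 200 nt entered each library. The tables hold deposited expected counts (estimated reads), deposited TPM with intervals of unstated level, and, for transcripts, the deposited percent of a gene's TPM. TPM was made over all features, spike-ins included, per the file headers and the sums of the columns.

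Identifiers without version were matched to GENCODE M21 symbols and transcript models (GRCm38, the assembly of mm10), where 98.0% of 43346 matched. All 9 members matched, and 58 of their 59 transcripts. Expected counts were rounded and scaled by TMM (edgeR 4.0.16) or, as an alternative, by DESeq2 1.42.0 size factors. Both raised replicate 2 by 0.07 on the log2 scale. Replicate ratios were called only for genes with a mean of at least 5 TPM. Over 17820 genes the chi-square of the counts between the libraries was 7.06 per degree of freedom, so they differ by more than counting error. Floors and the intervals from reads cover counting error only. The deposited intervals can be wider. For Pcyt1b-202 in replicate 2 the deposited interval reached 0.477 TPM, against a floor of 0.0256 TPM. None of these intervals covers variation between pools. The rule for genes apart (2-fold, separate intervals) was tested on simulated counts for 43346 genes. These had a fixed spread beyond counting error, and their intervals were made from the counts, unlike the deposited ones. Among genes with a simulated mean of at least 5 TPM, the rule called 188 of 190 changed 4-fold and 2 of 11171 unchanged. Calls by separate intervals alone or with a 1.2-fold minimum were not tested in this way.

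Named genes are the 9 members, the 3 highest and all undetected genes of each list, the genes set in pairs, and transcripts with at least 10% of a member's TPM. The members and lists were chosen with earlier results of these data known. Alternatives covered the TPM column, scaling, minimum level, fold, intervals and leaving out each library. Exon sequences came from GENCODE M21 transcripts, and promoter windows from RefSeq GRCm38.p6.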

Additional observations from a re-analysis of the deposited data

How the results depend on the processing

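The levels are those of 2 pools, so their spread has 1 degree of freedom, and members with few reads (129 for Pcyt1b) are limited by depth. No paired analysis was possible because there is a single group. No called result changed direction under the alternatives run, but the uncalled ratios of Chpt1 and Pcyt1a became -0.06 and -0.02 without scaling. Rescaling TPM over Ensembl genes only moved the members' median from 27.0 to 28.4 TPM. The count of genes apart by 2-fold was 40, and it became 157 with a minimum mean of 1 TPM, 320 with no minimum, 81 at 1.5-fold (1 of them a member), 62 with an exact binomial test in place of the intervals, and 1524 with separate intervals and no fold minimum (5 members). The 5 members with separate intervals fell to 2 with a minimum of 1.2-fold, and were 6 without scaling. By posterior mean TPM, the share of the full Chpt1 coding sequence was 82.1% in place of 85.8%, and that of the downstream Pcyt1b start 78.6% in place of 91.9%. At a minimum of 2 TPM, 8 members were detected. The comparison by separate intervals, by the 1.2-fold minimum and by scaled reads was chosen after seeing the data. Of the alternative values for main results 44 stayed within the spread or within 1.5 times the count and 9 moved, and of those for single genes or pairs 124 stayed and 8 moved.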

Other observations

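Beyond the 9 genes, other genes of the lamellar body and of surfactant turnover also differed between the pools, and those given here were chosen after their values were seen. Napsa, the aspartic protease that processes surfactant protein B in the organelle, had 35.6 TPM in replicate 1 and 26.3 TPM in replicate 2 (scaled log2 ratio -0.37). Ctsh, the cathepsin that acts on the same precursor, had 423 and 341 TPM (-0.24). Adgrf5, an adhesion receptor that limits surfactant pool size, had 10.1 and 7.86 TPM (-0.29). Csf2ra, a chain of the GM-CSF receptor that macrophages need to clear surfactant, had 17.8 and 14.0 TPM (-0.28). The scaled intervals of these 4 genes did not overlap, nor did those of Ap3b1 (-0.12) and Anxa2 (-0.08) of the same lists. Over all genes with a mean of at least 5 TPM, 4.3% had such intervals with replicate 1 higher.

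The opposite direction was seen for the lysosomal tetraspanin Cd63, with 561 and 589 TPM (0.14), for Vamp8, with 152 and 162 TPM (0.17), and for Hps6, a subunit of a complex that builds lysosome-related organelles, with 8.12 and 9.20 TPM (0.25). Their scaled intervals did not overlap either, as was so for 9.24% of all those genes with replicate 2 higher. In the phosphatidylglycerol branch the CDP-diacylglycerol synthase Cds1 had 6.20 and 3.44 TPM, while Cds2, which carries out the same step, had 20.0 and 20.2 TPM. Cds1 has a mean under 5 TPM and was therefore not called.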
